A study of Homo sapiens with 3 samples.

Results

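The KYSE30 lines that carry either of 2 short hairpin RNAs (shRNAs) against the small nucleolar RNA SNORD12B were compared directly with each other, so that 2 of the 3 libraries of the study enter each ratio. KYSE30 is an established line of human esophageal squamous cell carcinoma. The third line carried the pLKO.1 vector system with a scrambled, non-targeting shRNA per its protocol, while its genotype label reads vector; its levels are printed beside the others but take no part in the ratio. All 3 lines were grown with 10% serum, transduced with virus over 24 hours and kept for 2 weeks in blasticidin at 5 ug/mL, so viral integration and selection are shared by every group. Each line gave 1 library of total RNA. Whether a line is a clone or a selected pool is not stated in the sources used here. No line had a replicate culture. Every interval below is therefore a 95% exact interval that covers counting error only, no p-value is given, and a difference beyond its interval compares 2 libraries and not 2 shRNAs.

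Of the 60554 genes in the table, 14799 had 30 or more counts in at least 1 of the 2 libraries and are called well counted. Total counts were 15146805 with the label shRNA 1, 17336936 with the label shRNA 2 and 15473922 in the control, and genes of the mitochondrial genome took 3.94, 4.25 and 4.6% of them. Levels are counts scaled to a common library size (CPM), and 3 levels in a row are in the order control, label shRNA 1, label shRNA 2. CPM is not divided by gene length, so levels of different genes are not compared. Marker genes of simple epithelium were abundant, with a summed level of 8886, 8096 and 9837 CPM, and those of squamous epithelium summed to 1093, 692 and 963 CPM, although KRT5, which defines the basal squamous layer, stood at 0.0651, 0.197 and 0.115 CPM. Markers of fibroblasts summed to 16.01, 9.47 and 13.7 CPM, almost all of it COL1A1, and 5 of the 8 markers were at 0 in both shRNA libraries. Immune cell markers summed to 2.08, 1.84 and 2.41 CPM and endothelial markers to 4.04, 1.45 and 5.92 CPM.

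SNORD12B belongs to the box C/D small nucleolar RNAs, which pair with ribosomal RNA and guide 2′-O-methylation of its riboses. Such RNAs are cut from introns of host genes, here the long noncoding RNA ZFAS1, and act within a particle built around fibrillarin, NOP56, NOP58 and SNU13. The nucleolus, where they work, is also where ribosomal RNA is transcribed and ribosomal subunits are put together. The RNA that both shRNAs target is shown first because the lines are defined by it. In the sequence, capitals mark the letters TGATGA of the C box, from base 12, and CTGA of the D box, from base 79 (chr20:49280319-49280409, plus strand, hg38, GENCODE 29).
SNORD12B: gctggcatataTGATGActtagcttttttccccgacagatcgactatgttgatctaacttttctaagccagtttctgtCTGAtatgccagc

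SNORD12B had 7 counts in the control, against 15 for label shRNA 1 and 1 for label shRNA 2. The ratio of label shRNA 1 to label shRNA 2 was 17.2 (2.64 to 722), an interval set by the single count. The library labelled shRNA 1 thus held no fewer SNORD12B reads than the control, against its label as far as so few reads of a short RNA can show. The host ZFAS1, whose exons overlap an opposite-strand gene on 11.1% of their bases, stood at 12.1, 14.2 and 9.49 CPM, a ratio of 1.5 (1.22 to 1.84). ZNFX1, the neighbour on the other strand, stood at 190.5, 181.6 and 246.9 CPM and was 1.36-fold (1.30 to 1.43) higher with the label shRNA 2.

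Between the 2 shRNA libraries, 617 well-counted genes (4.17%) were at least 2-fold higher with the label shRNA 1 and 779 (5.26%) at least 2-fold higher with the label shRNA 2, together 9.43%. The same rule against the control gave 882 of 14570 genes (6.05%) for the label shRNA 1, 296 higher (2.03%) and 586 lower (4.02%), and 564 of 14794 (3.81%) for the label shRNA 2, 282 in each direction (1.91%). The whole interval lay beyond 2-fold for 236 genes (1.59%) in the first direction and 272 (1.84%) in the second. At 4-fold the numbers were 42 (0.284%) and 92 (0.622%). The median log2 ratio of label shRNA 1 to label shRNA 2 over all well-counted genes was -0.0017, with quartiles at -0.33 and 0.32, and 73.3% of the genes lay within 1.5-fold. For 63.7% the interval excluded 1, which shows how small a difference these counts resolve and is not a count of changed genes. No gene was near absence, at 3 or fewer counts, in 1 shRNA library with 100 or more counts in the other.

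Of the 12 genes named on the side of the label shRNA 1, MCM10 and MCM6 are on the DNA replication list and NOP56 is on the ribosome biogenesis list. CDCA7, a gene of the replicating cell that recruits the chromatin remodeler HELLS, stood at 45.2, 59.7 and 9.72 CPM and was 6.15-fold (5.21 to 7.29) higher with the label shRNA 1. FABP5, an epidermal fatty acid binding protein, stood at 11.3, 24.4 and 3.97 CPM, also a ratio of 6.15 (4.75 to 8.07). DPYSL3, a cytoskeletal regulator known from growing axons, stood at 10.2, 33.9 and 6.67 CPM, a ratio of 5.08 (4.14 to 6.27). These 3 genes had the largest ratios of the 12 named on this side. MCM10 and MCM6 serve the replicative helicase, CTPS1 makes CTP, and NOP56, URB2, MYBBP1A and LYAR are nucleolar proteins. Their ratios ran from 3.23 (3.03 to 3.44) for NOP56 to 4.42 (3.80 to 5.15) for MCM10. WDR4, a subunit of a tRNA methyltransferase, and FAM111B had ratios of 3.35 (2.90 to 3.89) and 3.36 (2.87 to 3.96).

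The 12 genes named on the side of the label shRNA 2 were S100P, CLIC3, TMPRSS4, GDF15, ADM2, TSC22D3, PCK2, RSAD2, CRIP2, AQP3, H2AC6 and TJP3. S100P, a calcium-binding protein, stood at 11.5, 3.35 and 22.2 CPM and was 6.62-fold (4.93 to 9.05) higher with the label shRNA 2. CLIC3, an intracellular chloride channel protein, stood at 34.4, 8.09 and 52.2 CPM, 6.45-fold (5.34 to 7.86) higher. The membrane serine protease TMPRSS4 stood at 31.8, 5.72 and 32.7 CPM, 5.72-fold (4.56 to 7.25) higher, with the control next to the label shRNA 2. The water and glycerol channel AQP3, at 54.8, 11.4 and 49.96 CPM, and the LIM protein CRIP2, at 44.8, 9.21 and 41.9 CPM, likewise had the label shRNA 1 apart from the others. TSC22D3, a glucocorticoid-induced leucine zipper protein, stood at 8.85, 6.38 and 31.3 CPM, so that here the label shRNA 2 was the library that stood apart. ADM2, a secreted peptide of the calcitonin family that is on no list here, stood at 12.9, 4.73 and 25.1 CPM, 5.31-fold (4.13 to 6.91) higher with the label shRNA 2. The other 5 are described with their lists.

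**Figure D1:**
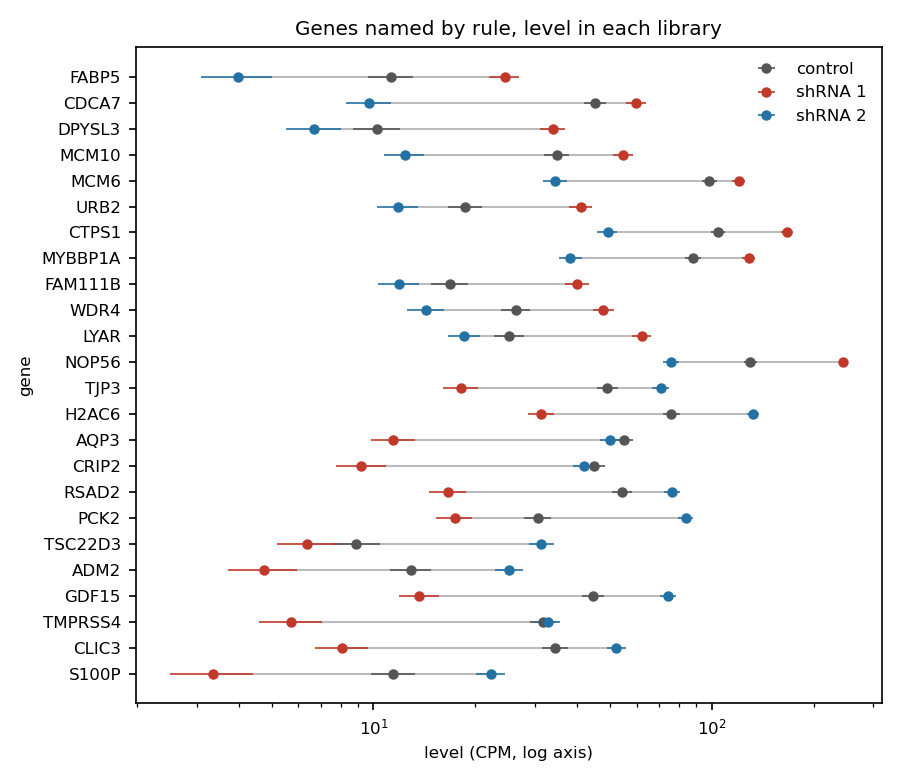
Level in CPM (log axis) of the 12 genes named by rule on each side, in the control (grey), the library labelled shRNA 1 (red) and the library labelled shRNA 2 (blue); bars are 95% exact Poisson intervals of the single library's count. The 2 shRNA libraries stand from 3.23-fold (NOP56) to 6.62-fold (S100P) apart, with the control between them for all but AQP3 and CRIP2.

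Interferon-stimulated genes were higher with the label shRNA 2. Interferons are secreted when a cell senses foreign or misplaced nucleic acid, and through their receptors they switch on a set of antiviral genes whose promoters carry an interferon response element. The gene lists here and below were chosen with earlier results of these data known, so their shares describe and test nothing. Of 46 listed genes, 44 were well counted. All 44 had a higher level with the label shRNA 2, 22 of them (50%, against 5.26% of all genes) by at least 2-fold, and none was 2-fold higher in the other direction. The median log2 ratio of label shRNA 1 to label shRNA 2 was -0.99, against -0.0017 over all genes. The listed genes summed to 5723, 4482 and 8070 CPM. Relative to the control, which both comparisons share, their median log2 ratio was -0.12 for the label shRNA 1 and 0.71 for the label shRNA 2.

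RSAD2, which encodes the antiviral enzyme viperin, stood at 54.4, 16.6 and 76.1 CPM and was 4.59-fold (4.01 to 5.27) higher with the label shRNA 2. The guanylate-binding proteins GBP1, at 5.53, 1.58 and 9.43 CPM, and GBP2, at 23.2, 2.89 and 15.1 CPM, were 5.97-fold (3.88 to 9.59) and 5.21-fold (3.77 to 7.34) higher. IFITM1, a membrane protein that hinders viral entry, stood at 30.7, 27.7 and 100.7 CPM, 3.64-fold (3.27 to 4.05) higher. The control lay near the label shRNA 1 for IFITM1, nearer the label shRNA 2 for RSAD2, and above both for GBP2. IFITM1 has related copies, IFITM2 among them, and whether reads were split among these was not tested. At the other end, IFI44 and LAP3 differed by less than their counting interval allows to tell, with ratios of label shRNA 1 to label shRNA 2 of 0.966 (0.925 to 1.01) and 0.956 (0.890 to 1.03).

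Among the 31 well-counted ligands, receptors, sensors and transducers of the interferon pathway, out of 36 listed, 5 (16.1%, against 5.26% of all genes) were at least 2-fold higher with the label shRNA 2 and 1 (3.23%, against 4.17%) with the label shRNA 1, with a median log2 ratio of -0.39. The 5 were the ligands IFNL1, IFNL2, IFNL3 and IFNB1 and the sensor TLR3. IFNL1, a type III interferon, stood at 22.5, 11.0 and 26.7 CPM, 2.41-fold (2.02 to 2.90) higher with the label shRNA 2. IFNL2 stood at 16.2, 6.05 and 19.3 CPM and IFNL3 at 15.2, 9.01 and 26.8 CPM, but these 2 genes are near-identical copies. For all 3 the label shRNA 1 was the lowest library. TLR3, a receptor for double-stranded RNA in endosomes, stood at 15.4, 13.5 and 30.4 CPM, 2.25-fold (1.91 to 2.66) higher with the label shRNA 2. IFNB1 had only 41, 12 and 41 counts. The factor IRF7 was the member on the other side, with 38, 37 and 18 counts and a ratio of 2.35 (1.31 to 4.39); IFNB1 and IRF7 were named after their values were seen. The receptor subunits on the list were within 2-fold.

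The machinery of MHC class I, which loads peptides from the proteasome onto HLA molecules, is itself induced by interferon. Of 17 well-counted members 16 were higher with the label shRNA 2, 3 of them (17.6%, against 5.26% of all genes) at least 2-fold, with a median log2 ratio of -0.59. PSMB9, an immunoproteasome subunit, stood at 28.3, 15.7 and 40.5 CPM, 2.59-fold (2.23 to 3.01) higher with the label shRNA 2. PSMB8, of the same particle, and the peptide transporter subunit TAP1 were 2.22-fold (1.86 to 2.66) and 2.05-fold (1.92 to 2.20) higher. PSMB8 is overlapped on the opposite strand. By contrast, 15 well-counted NF-kB and cytokine genes had a median log2 ratio of -0.12. Of them, 1 (6.67%, against 4.17% of all genes) was 2-fold higher with the label shRNA 1 and none in the other direction.

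Replication-dependent histone genes gave the lowest median of all lists described. These genes supply the histones that package new DNA in S phase, and their messengers end in a stem-loop in place of a poly(A) tail. Of 65 listed genes, 25 were well counted and 10 were at 0 in both libraries. A histone gene low in 1 library could enter only through the other, so the count is a description of the genes that entered. Each of the 25 was higher with the label shRNA 2, 19 of them (76%, against 5.26% of all genes) at least 2-fold, with a median log2 ratio of -1.49. Their levels summed to 476, 267 and 671 CPM, so the control lay between the shRNA libraries. H2AC6 stood at 75.9, 31.3 and 132.5 CPM, 4.23-fold (3.83 to 4.68) higher with the label shRNA 2. H2BC21 stood at 43.6, 23.1 and 70.0 CPM and H4C8 at 10.2, 4.87 and 15.7 CPM, 3.03-fold (2.69 to 3.43) and 3.23-fold (2.49 to 4.23) higher. Both followed the order of H2AC6, with the label shRNA 1 lowest and the label shRNA 2 highest. Histone genes share much of their coding sequence, so reads may have been split among them. The mix of polyadenylated and other RNA in each library was not tested, and no source used here names the library kit.

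Of the 25 histone genes, 21 lie in 1 region of chromosome 6. When well-counted genes were grouped in 296 windows of 10 Mb, each with 8 or more genes, window medians ran from -0.52 to 0.49 on the log2 scale. The single window beyond 0.5 in either direction held this cluster, from 20000001 to 30000000 on chromosome 6 (hg38). Its 21 histone genes had a median log2 ratio of -1.49, with 15 at least 2-fold higher with the label shRNA 2. The other 68 genes of the window had a median of -0.25, with 8 at least 2-fold higher with the label shRNA 2 and 3 with the label shRNA 1. Over all well-counted genes these shares were 5.26 and 4.17%. Of these 8, 7 lie between the outermost histone genes of the window: the histone pseudogene H1-12P and 6 genes with no official symbol, several of which overlap a histone gene. The other genes were split at the ends of that stretch after the values were seen. The 23 inside it had a median of -0.60 and the 45 outside it a median of -0.09. Of the 45, 1 gene, ZSCAN31, was at least 2-fold higher with the label shRNA 2 and 3 were with the label shRNA 1. The medians of whole chromosomes all lay between -0.07 and 0.08.

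**Figure D2:**
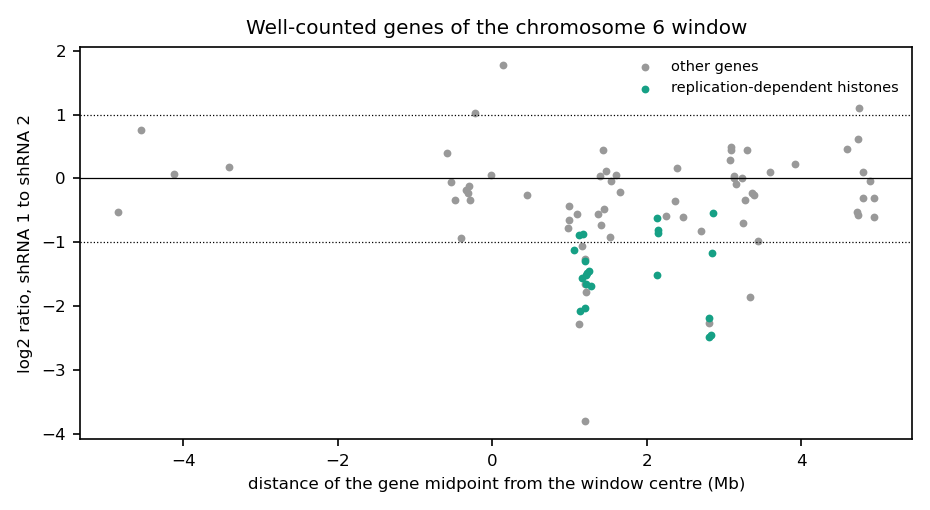
Log2 ratio of label shRNA 1 to label shRNA 2 against the distance of each gene's midpoint from the centre of the 10 Mb window on chromosome 6 (Mb), for 21 replication-dependent histone genes (green) and 68 other well-counted genes (grey); dotted lines mark 2-fold. All of the histone genes lie below 0, with a median of -1.49, while the other genes, with a median of -0.25, spread on both sides of 0.

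Targets of the transcription factor ATF4 were also higher with the label shRNA 2. ATF4 is translated when amino acids run short or the endoplasmic reticulum is stressed, and it induces genes for amino acid synthesis, uptake and tRNA charging. Of 22 well-counted targets out of 23, 20 were higher with the label shRNA 2, 10 of them (45.5%, against 5.26% of all genes) at least 2-fold, and the median log2 ratio was -0.81. The median relative to the control was -0.53 for the label shRNA 1 and 0.26 for the label shRNA 2, and the levels summed to 3632, 2760 and 4402 CPM.

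PCK2, the mitochondrial enzyme that makes phosphoenolpyruvate, stood at 30.5, 17.4 and 83.7 CPM, 4.82-fold (4.23 to 5.52) higher with the label shRNA 2. ASNS, which makes asparagine, stood at 142, 79.0 and 276.5 CPM, 3.50-fold (3.28 to 3.73) higher. In both the control stood between the shRNA libraries, clear of each. The glycine transporter SLC6A9, at 32.2, 20.3 and 59.0 CPM, and the pseudokinase TRIB3, at 88.2, 67.0 and 188.3 CPM, were 2.91-fold (2.56 to 3.31) and 2.81-fold (2.62 to 3.02) higher. SLC7A11, the cystine carrier counted among the NRF2 targets and also known to respond to ATF4, stood at 56.9, 31.9 and 115.6 CPM, 3.63-fold (3.28 to 4.01) higher. The mRNA of ATF4 itself stood at 273, 199 and 291 CPM, a ratio of label shRNA 1 to label shRNA 2 of 0.686 (0.655 to 0.717). The 2 targets on the other side, PSPH and ATF5, named after their values were seen, were higher with the label shRNA 1 by less than 2-fold. Chaperones of the endoplasmic reticulum showed no such shift: none of 15 was 2-fold apart, and their median was -0.06. Cytosolic aminoacyl-tRNA synthetases, a list added after the values were seen, split, with 12 of 20 higher with the label shRNA 2 and 8 with the label shRNA 1. AARS1 stood at 298, 212 and 409 CPM, while VARS1 stood at 109, 139 and 61.9 CPM.

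Of 18 p53 targets, all well counted, 15 were higher with the label shRNA 2 and 4 of them (22.2%, against 5.26% of all genes) at least 2-fold, with a median log2 ratio of -0.34. The stress-induced secreted factor GDF15, which other stress factors including ATF4 also induce, stood at 44.5, 13.7 and 74.2 CPM, 5.42-fold (4.68 to 6.31) higher with the label shRNA 2. BBC3, the pro-apoptotic protein PUMA, stood at 24.4, 13.2 and 38.6 CPM, 2.94-fold (2.51 to 3.46) higher. TP53INP1 and BTG2, which slow proliferation, were 2.75-fold (2.28 to 3.33) and 2.38-fold (1.99 to 2.86) higher. CDKN1A, the inhibitor p21, was 1.72-fold (1.63 to 1.82) higher, at 194, 136 and 235 CPM. MDM2 and BAX had ratios of label shRNA 1 to label shRNA 2 of 0.83 and 1.09. In the BCL2 family, 3 of 15 members (20%, against the same 5.26%) were at least 2-fold higher with the label shRNA 2, and all 3, BBC3, BMF and HRK, encode BH3-only proteins that promote apoptosis. BMF stood at 13.7, 5.66 and 17.8 CPM, 3.14-fold (2.47 to 4.04) higher.

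Genes of epithelial junctions and squamous differentiation leaned the same way, whereas squamous serpins did not. Of 25 well-counted adhesion genes, 23 were higher with the label shRNA 2 and 3 of them (12%, against 5.26% of all genes) at least 2-fold, with a median log2 ratio of -0.53. TJP3, a scaffold of the tight junction, stood at 49.1, 18.1 and 70.7 CPM, 3.89-fold (3.41 to 4.45) higher with the label shRNA 2. CLDN1, a sealing claudin, stood at 331, 129 and 377.5 CPM, 2.93-fold (2.78 to 3.08) higher. The desmosomal cadherin DSG3 stood at 92.4, 61.2 and 129 CPM, 2.11-fold (1.96 to 2.28) higher. For all 3 the label shRNA 1 was below the control and the label shRNA 2 above it. E-cadherin, CDH1, was 1.51-fold (1.47 to 1.56) higher with the label shRNA 2 at 633, 449 and 678 CPM.

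Of 30 listed genes of squamous differentiation only 11 were well counted, and 10 of these were higher with the label shRNA 2, 4 (36.4%, against 5.26% of all genes) at least 2-fold, with a median of -0.72. The kallikrein protease KLK5 and the suprabasal keratin KRT13, both overlapped on the opposite strand, were 3.58-fold (2.43 to 5.40) and 2.83-fold (2.38 to 3.38) higher. TGM1, which crosslinks the cornified envelope, stood at 9.50, 3.42 and 7.36 CPM. Of 6 well-counted squamous serpins, 4 had a ratio above 1 and 2 below it, with a median log2 ratio of 0.22. At least 2-fold higher were 1 serpin (16.7%, against 4.17% of all genes) with the label shRNA 1 and none with the label shRNA 2. Among 13 well-counted basal squamous genes, 3 (23.1%) were at least 2-fold higher with the label shRNA 2, with a median of -0.39. The factor SOX2 was 3.19-fold (2.71 to 3.78) higher with that label, yet the control stood above both libraries, at 104, 12.2 and 38.9 CPM. KRT17 had the same order, 3.43-fold (2.97 to 3.97) higher with the label shRNA 2, whereas KRT6A was 1.75-fold (1.61 to 1.91) higher with the label shRNA 1; the reads of keratin copies may have been split among them. The membrane mucin MUC20 stood at 6.97, 2.43 and 13.6 CPM, 5.60-fold (3.95 to 8.15) higher with the label shRNA 2.

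Mesenchymal genes were divided. Of 14 well-counted members, 6 were higher with the label shRNA 1 and 8 with the label shRNA 2, with a median log2 ratio of -0.13. The intermediate filament gene VIM, overlapped by its antisense gene, stood at 4.75, 67.3 and 17.4 CPM, a ratio of 3.87 (3.4 to 4.41), and N-cadherin, CDH2, at 1.56, 10.2 and 4.71 CPM, a ratio of 2.16 (1.64 to 2.86). Fibronectin, FN1, was 1.86-fold (1.66 to 2.09) higher with the label shRNA 2. Of 14 well-counted Notch genes, 6 had a ratio above 1 and 8 below it, with a median log2 ratio of -0.16. With the label shRNA 2, 2 members (14.3%, against 5.26% of all genes) were at least 2-fold higher. With the label shRNA 1 it was 1 member (7.14%, against 4.17%), the ligand DLL3. The receptor NOTCH3 stood at 88.0, 23.4 and 72.7 CPM and its target HEY1 at 26.2, 5.98 and 17.6 CPM, 3.11-fold (2.76 to 3.50) and 2.94-fold (2.32 to 3.76) higher with the label shRNA 2. The imprinted RNA H19 was 2.98-fold (2.66 to 3.36) higher with the label shRNA 2, but at 330, 24.8 and 74.0 CPM it lay far under the control in both.

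DNA replication genes were higher with the label shRNA 1. Before S phase the origin recognition complex, CDC6 and CDT1 load the MCM helicase on DNA; GINS and CDC45 then complete the helicase, and polymerases with the sliding clamp PCNA and its loader RFC copy the strands. Many of these genes are activated by E2F factors at the G1/S transition. All 39 listed genes were well counted, and all 39 had a ratio above 1 with an interval that excluded 1. For 17 (43.6%, against 4.17% of all genes) the level was at least 2-fold higher with the label shRNA 1. The median log2 ratio was 0.91, and the median relative to the shared control was 0.19 for the label shRNA 1 and -0.72 for the label shRNA 2. The levels summed to 3593, 3898 and 1961 CPM, so that the control lay near the label shRNA 1.

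Of the helicase and its partners, MCM10 stood at 34.8, 54.6 and 12.4 CPM, a ratio of 4.42 (3.80 to 5.15). MCM6 stood at 98.2, 120 and 34.4 CPM, a ratio of 3.49 (3.18 to 3.83). GINS2, of the complex that completes the helicase, stood at 41.3, 48.7 and 17.1 CPM, a ratio of 2.85 (2.49 to 3.27). In each the control stood nearer the label shRNA 1, less clearly for MCM10 than for MCM6 and GINS2. CDC6, the loader, stood at 79.7, 90.9 and 32.5 CPM, a ratio of 2.80 (2.54 to 3.09). PCNA stood at 214, 271 and 132 CPM, a ratio of 2.04 (1.94 to 2.15). The smallest ratio was that of RPA1, a subunit of the protein that coats single-stranded DNA, at 1.10 (1.04 to 1.16).

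The 21 genes of the G1/S transition and deoxynucleotide supply were also all at a ratio above 1, with 8 (38.1%, against 4.17% of all genes) at least 2-fold higher and a median log2 ratio of 0.92. CDC25A, the phosphatase that activates CDK2, stood at 35.7, 44.4 and 13.5 CPM, a ratio of 3.29 (2.83 to 3.83). DTL, a substrate receptor for ubiquitination in S phase, stood at 45.2, 65.6 and 21.5 CPM, a ratio of 3.05 (2.70 to 3.44). E2F1, itself an E2F target, stood at 34.2, 56.4 and 18.6 CPM, a ratio of 3.03 (2.67 to 3.46). UHRF1, which carries DNA methylation through replication, had a ratio of 2.74 (2.56 to 2.94). Mitosis genes were closer together. None of 30 was 2-fold apart and their median was 0.22, the largest ratio among those named being 1.80 (1.64 to 1.98) for the checkpoint gene MAD2L1. Replication genes and replication-dependent histones thus had medians of opposite sign between these 2 libraries, 0.91 and -1.49. The counts are per gene, so they do not separate stem-loop from polyadenylated forms of a histone messenger.

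Ribosome biogenesis genes gave the highest median of all lists described. This group makes ribosomal RNA in the nucleolus, cuts and modifies it and assembles the subunits. All 34 listed genes were well counted, 33 had a ratio above 1, and 19 (55.9%, against 4.17% of all genes) were at least 2-fold higher with the label shRNA 1. The median log2 ratio was 1.04. The median relative to the shared control was 0.48 for the label shRNA 1 and -0.53 for the label shRNA 2, and the levels summed to 4578, 6355 and 3187 CPM, with the control between. Without genes that overlap others on the opposite strand, fewer members were left and 12 were at least 2-fold higher.

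NOP56, a core protein of the box C/D particle to which SNORD12B itself belongs, stood at 130, 245 and 75.8 CPM, a ratio of 3.23 (3.03 to 3.44). Its partners NOP58, FBL and SNU13, named for the particle after their values were seen, had smaller ratios: NOP58 stood at 63.3, 112 and 53.2 CPM, FBL, the methyltransferase fibrillarin, at 164, 207 and 120 CPM with a ratio of 1.73 (1.63 to 1.82), and SNU13 at 73.6, 80.6 and 55.1 CPM. All 4 core proteins were thus higher with the label shRNA 1. NOP2, which methylates a cytosine of the large ribosomal RNA, stood at 50.8, 93.2 and 31.7 CPM, a ratio of 2.94 (2.66 to 3.25). UTP20, of the small-subunit processome, stood at 28.1, 50.8 and 17.8 CPM, a ratio of 2.85 (2.50 to 3.26), and BOP1, which processes the large-subunit RNA, at 110, 172 and 61.0 CPM, a ratio of 2.83 (2.63 to 3.04). The abundant nucleolar proteins NCL and NPM1 had ratios of 2.20 (2.15 to 2.26) and 2.03 (1.99 to 2.07). The exception was UBTF, the polymerase I factor, which had a ratio of 0.863 (0.813 to 0.916).

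Ribosomal protein genes, the parts that are assembled, were close together. Of 84 well-counted cytosolic ribosomal protein genes, 3 were at least 2-fold higher with the label shRNA 1 and none with the label shRNA 2 (3.57%, against 4.17% of all genes), and their median log2 ratio was 0.03. The 3 were RPL22L1, RPL26 and RPL36A. RPL22L1, a paralog that can replace RPL22, stood at 24.5, 35.0 and 13.2 CPM, a ratio of 2.66 (2.27 to 3.12). RPL26 stood at 17.5, 25.7 and 9.95 CPM and RPL36A at 6.18, 8.81 and 3.05 CPM. The listed genes together summed to 62721, 54614 and 55461 CPM. Whether reads of RPL26 and RPL36A were lost to other copies or overlapping genes was not tested. Long noncoding hosts of small nucleolar RNAs were mostly higher with the label shRNA 1. Of 26 well-counted hosts, 25 had a ratio above 1 and 7 (26.9%, against 4.17% of all genes) were at least 2-fold higher, with a median of 0.58. SNHG12 stood at 16.2, 33.9 and 10.1 CPM, a ratio of 3.35 (2.82 to 4), SNHG4 at 21.8, 38.1 and 13.1 CPM, a ratio of 2.92 (2.50 to 3.42), and SNHG15 at 21.8, 39.1 and 14.4 CPM, a ratio of 2.71 (2.34 to 3.15). For these 3 hosts the control was nearer the label shRNA 2, less clearly for SNHG4. The ratios of SNHG4 to the control were 1.75 for the label shRNA 1 and 0.598 for the label shRNA 2. Over the list, the median log2 ratio to the control was 0.28 for the label shRNA 1 and -0.35 for the label shRNA 2. The listed hosts summed to 2261, 2474 and 1816 CPM.

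A further 4 lists bear on growth and were added after the values were seen, so their counts describe and support nothing. The lists above, chosen with earlier results of these data known, likewise only describe. All 19 enzymes of purine and pyrimidine synthesis had a ratio above 1, with a median log2 ratio of 0.81. For 9 of them (47.4%, against 4.17% of all genes) the ratio was at least 2. CTPS1 stood at 104, 167 and 49.2 CPM, a ratio of 3.39 (3.14 to 3.67). Of 21 cytosolic and mitochondrial-matrix chaperones, 20 had a ratio above 1 and 5 (23.8%, against the same 4.17%) at least 2. The list summed to 11618, 15836 and 8425 CPM. HSPA8, the constitutive HSP70, stood at 952, 1795 and 665 CPM, a ratio of 2.70 (2.64 to 2.76). Subunits of RNA polymerases I and III had a median of 0.58, with 3 of 18 (16.7%, against the same 4.17%) at least 2-fold higher with the label shRNA 1. Among them was POLR3G, an alternative polymerase III subunit, at 8.79, 20.3 and 5.92 CPM. Factors of the MYC network were divided, 6 above and 6 below a ratio of 1. Of these 12, 2 (16.7%, against 5.26% of all genes) were at least 2-fold higher with the label shRNA 2 and none with the label shRNA 1. MYC, which is known to drive ribosome biogenesis and nucleotide synthesis genes, stood at 131, 143 and 74.0 CPM, a ratio of 1.94 (1.81 to 2.08), while MXD4, a repressor that competes for its partner MAX, was at 36.5, 19.9 and 48.9 CPM.

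**Figure D3:**
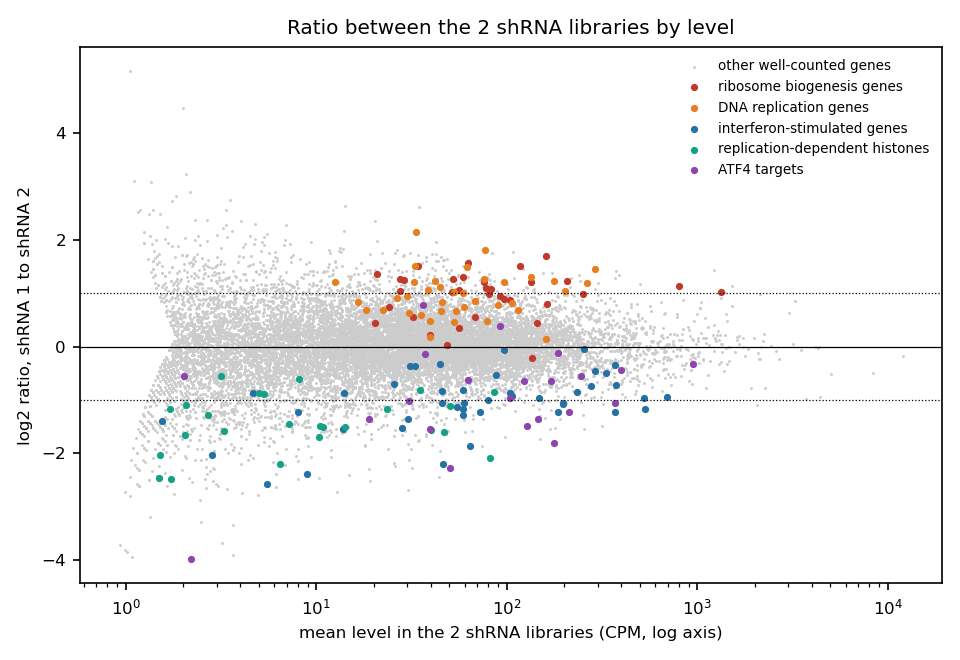
Log2 ratio of label shRNA 1 to label shRNA 2 against the mean level of both libraries (CPM, log axis) for 14799 well-counted genes (grey), with 5 lists in colour; dotted lines mark 2-fold. Ribosome biogenesis (red) and DNA replication genes (orange) have medians of 1.04 and 0.91, with 1 of the former below 0, and interferon-stimulated genes (blue), histones (green) and ATF4 targets (purple) have medians of -0.99, -1.49 and -0.81, with 2 of the last above 0.

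Several other groups had medians near 0. None of 26 PI3K and mTOR genes was 2-fold apart, and their median log2 ratio was 0.01. MTOR stood at 124, 152 and 104.5 CPM and EIF4E at 37.95, 55.0 and 38.1 CPM, ratios of 1.45 (1.37 to 1.55) and 1.44 (1.3 to 1.6). AKT1 had a ratio of 1.25 (1.17 to 1.33), and EIF4EBP1, a brake on translation initiation, was 1.24-fold (1.14 to 1.34) higher with the label shRNA 2. PPP1CA, a catalytic subunit of protein phosphatase 1 overlapped on the opposite strand, was 1.19-fold (1.15 to 1.24) higher with that label. None of 23 cholesterol synthesis genes or 13 mitochondrial mRNAs was 2-fold apart, with medians of 0.23 and 0.06. Hypoxia and glycolysis genes had a median of 0.22 and EGFR and MAP kinase output genes one of -0.07. Each had 1 of 29 members (3.45%) past 2-fold on either side. Over all genes the shares were 4.17% for the label shRNA 1 and 5.26% for the label shRNA 2. Single members did differ. EGR1, an immediate early factor, stood at 114, 34.5 and 11.6 CPM, a ratio of 2.97 (2.52 to 3.51). Among YAP and TEAD targets, the matricellular genes CCN2 and CCN1 and the coagulation receptor F3 were the 3 of 15 (20%, against 4.17% of all genes) at least 2-fold higher with the label shRNA 1, with ratios of 3.19 (2.83 to 3.6), 2.52 (2.43 to 2.62) and 2.24 (2.17 to 2.32), while the list's median was -0.17.

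**Figure D4:**
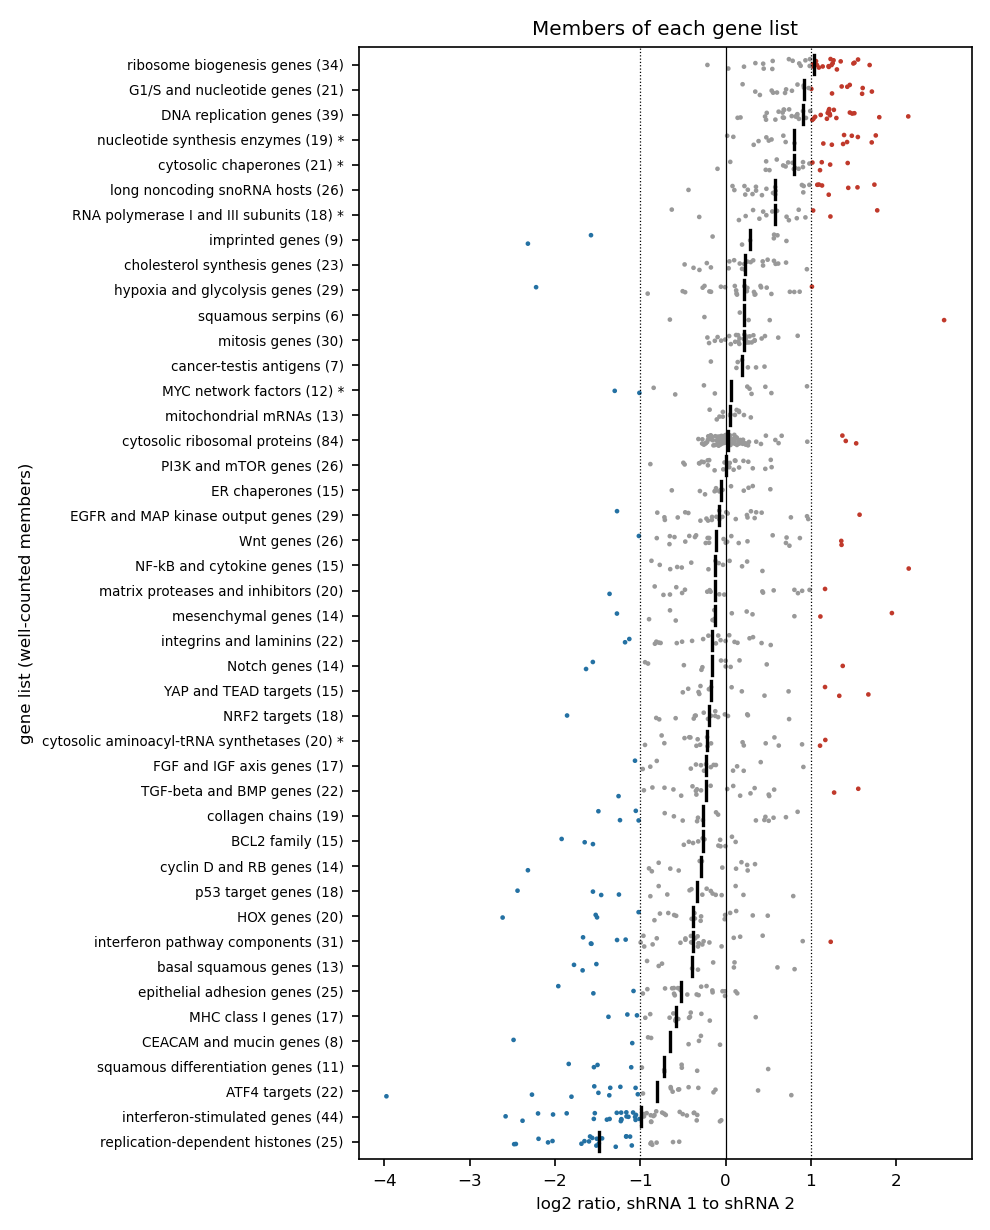
Log2 ratio of label shRNA 1 to label shRNA 2 for each well-counted member (points) of every list with 5 or more such members, apart from the cell type marker lists, ordered by median (black bar). Red and blue points are at least 2-fold higher with the label shRNA 1 and the label shRNA 2, and an asterisk marks a list added after the values were seen. Medians run from -1.49 for replication-dependent histones to 1.04 for ribosome biogenesis genes.

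Genes with fewer counts were past 2-fold more often. In the quintile of genes with the lowest mean level 22.7% were at least 2-fold apart, and this share was 10.1, 6.25, 5.03 and 3.04% in the following quintiles. Among 379 genes whose higher count was 30 to 34, 37 were at least 2-fold higher with the label shRNA 1 and 66 with the label shRNA 2, and just under the minimum, at 25 to 29 counts, 52 and 80 of 454 were. Most DNA replication and ribosome biogenesis genes were in the 2 upper quintiles, whereas several histone genes were in the lowest. Shorter genes differed more often, 12.8% in the shortest quintile against 6.69% in the longest. By annotated class, 8.38% of 9956 protein-coding genes and 21.6% of 379 long intergenic noncoding RNAs were at least 2-fold apart, against 9.43% of all genes. Of the latter class, 60 were higher with the label shRNA 2 and 22 with the label shRNA 1. The classes were not matched for level, and 21.6% is close to the 22.7% of the lowest level quintile. Chromosome 19 had 7.46% of its genes at least 2-fold higher with the label shRNA 2 and 2.23% with the label shRNA 1. Over all well-counted genes these shares were 5.26 and 4.17%. The share with the label shRNA 2 was not particular to chromosome 19. It was 7.29% on chromosome 17 and 7.33% on chromosome 21, beside 4.69 and 7.33% with the label shRNA 1.

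**Figure D5:**
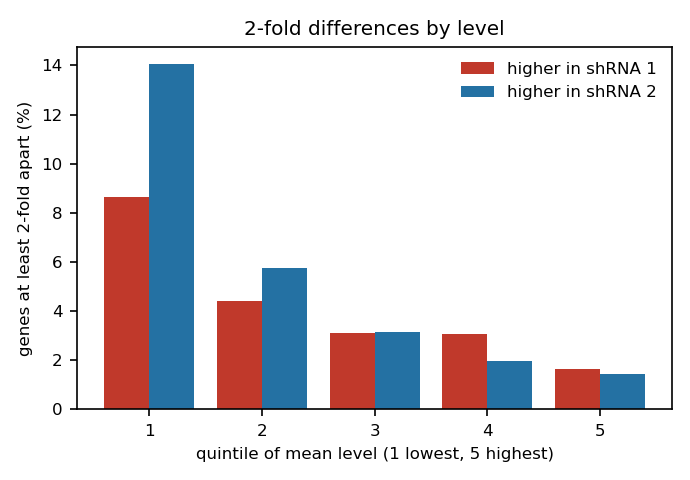
Percent of well-counted genes at least 2-fold higher with the label shRNA 1 (red) or the label shRNA 2 (blue) in each quintile of the mean level of both libraries. The share in both directions together falls from 22.7% in the lowest quintile to 3.04% in the highest.

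The ratio did not use promoter sequence, and the letters upstream of the genes were read as a further description. Each side holds members of the lists above, so its shares are not independent of those lists. RefSeq promoters (GRCh38.p14) from 250 bases before to 50 bases after the start were at hand for 10445 of 13420 well-counted genes with an official symbol. The share over all promoters, given beside the others, is over the 35116 promoters of 27305 genes in the RefSeq table, well counted or not, and some genes have several promoters. The interferon response element was searched as GAAA, any 2 bases and GAAA again, an E2F element as TTTCCCGC or TTTGGCGC, an AP-1 element as TGANTCA, the E-box bound by MYC and MAX as CACGTG and an ATF4 element as TGATGNAA, each on both strands; CACGTG and TGATGNAA were added after the values were seen. None of the letter strings contains another. Examples from both sides of the comparison, taken after the values were seen, are shown with the match in capitals because they let the shares below be read as letters. Each line reads 5′ to 3′ along the gene's own strand, so that a match to the other strand appears as its reverse complement.
RSAD2 (interferon response element, chr2:6877612-6877661, plus strand): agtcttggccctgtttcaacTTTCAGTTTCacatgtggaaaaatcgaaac
IFITM1 (interferon response element, chr11:313980-314029, plus strand): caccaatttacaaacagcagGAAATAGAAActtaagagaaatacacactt
GINS2 (E2F element, chr16:85688958-85689005, minus strand): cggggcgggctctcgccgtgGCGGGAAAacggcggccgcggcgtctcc
MCM3 (E2F element, chr6:52284889-52284936, minus strand): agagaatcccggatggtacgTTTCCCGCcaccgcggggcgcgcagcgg
UTP20 (E-box, chr12:101280075-101280104, plus strand): gcgccgttcttttttccgtcCACGTGaccc
DDX21 (E-box, chr10:68956596-68956641, plus strand): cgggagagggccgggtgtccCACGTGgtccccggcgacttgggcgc
ASNS (ATF4 element, chr7:97872449-97872496, minus strand): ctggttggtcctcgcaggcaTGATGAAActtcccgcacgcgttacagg
CHAC1 (ATF4 element, chr15:40953242-40953289, plus strand): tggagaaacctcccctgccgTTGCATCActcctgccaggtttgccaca

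The interferon response element was in 3.57% of all promoters. It was in 5.68% of 687 promoters of genes at least 2-fold higher with the label shRNA 2, in 1.21% of 494 promoters of genes higher with the label shRNA 1 and in 2.79% of 13884 promoters of genes within 2-fold. The E2F element was in 6.68% of the promoters on the side of the label shRNA 1, 0.873% on the side of the label shRNA 2, 3.29% within 2-fold and 2.27% of all promoters. The E-box was in 17.0, 6.99, 9.05 and 7.26% in the same order. The AP-1 element was in 5.26, 7.28, 5.34 and 7.71%, and the ATF4 element in 1.42, 3.2, 1.97 and 3.62%. Within lists, 29 of 46 promoters of interferon-stimulated genes held the interferon element, 15 of 40 of DNA replication genes the E2F element, 12 of 35 of ribosome biogenesis genes the E-box and 5 of 30 of ATF4 targets the ATF4 element. Of the 28 histone promoters, 3 (10.7%) held the interferon element and none the E2F element, the E-box, the AP-1 element or the ATF4 element in this window. A match of letters is not a bound site, several promoters of 1 gene overlap, and these shares were not tested.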

How the data were processed

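Total RNA of 3 KYSE30 lines was sequenced, 1 library each. The values are unnormalised counts for each gene, made and deposited by the authors with featureCounts 1.6.4 against an hg38 annotation with the strand option 1, per the file headers. The submitters' processing notes name TopHat2, HTSeq and hg19, which differs. No source used here names the library kit, so genes overlapping on opposite strands are treated as uncertain. All 52179 identifiers shared with GENCODE 29 have the same coordinates there.

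Counts were scaled in R 4.3.3 by edgeR 4.0.16 TMM factors over the 3 libraries (17801 genes that passed filterByExpr) on totals of all genes. A ratio carries an exact conditional (Clopper-Pearson) interval at 95%, computed with scipy 1.17.1, and a level an exact Poisson interval. A count of 0 was set to the limit of 3 counts for log2 ratios. With 1 library a side, edgeR's quasi-likelihood test cannot be fitted, and no test was made. Ratios were checked on simulated data.

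Members and gene lists were chosen with earlier results of these data known, and 5 lists and 2 motifs after the values were seen. Genes were named by rule: the locus; 12 a side with the largest ratio by the interval bound nearest 1, an official symbol, at least 20 CPM in the higher library and at most 10% opposite-strand overlap; and up to 4 members a list, those furthest apart with 5 CPM or more; and 5 genes of the AKT and mTOR pathway and PPP1CA. Other genes are named for their role or after their values were seen. The alternatives covered scaling, the count minimum, the fold, overlapping genes and zero counts.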

Additional observations from a re-analysis of the deposited data

Results flagged for a closer look

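Of the genes named by rule, 11 lay beyond 1.5-fold of the control in opposite directions in the 2 shRNA libraries, each time with the whole counting interval. They were named because the 2 shRNA libraries stood far apart, so opposite sides of the control are in part a result of that choice. No share over all well-counted genes was computed. The difference was not tested, since each line has 1 library, and both ratios share the control. Below the control with the label shRNA 1 and above it with the label shRNA 2 were MUC20 (ratios to the control 0.349 and 1.96), S100P (0.293 and 1.94), SLC7A11 (0.561 and 2.03), H2AC6 (0.412 and 1.75), ASNS (0.556 and 1.94), PCK2 (0.569 and 2.74), GDF15 (0.308 and 1.67) and ADM2 (0.367 and 1.95). Above it with the label shRNA 1 and below it with the label shRNA 2 were FABP5 (2.17 and 0.352), NOP56 (1.88 and 0.584) and WDR4 (1.82 and 0.542). ASNS, PCK2 and SLC7A11 are known to respond to ATF4, and NOP56 is a nucleolar protein.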

How the results depend on the processing

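No value changed sign among the results that answer the comparison. Their counts moved mostly by construction, since another minimum or fold takes in other genes. Genes at least 2-fold higher with the labels shRNA 1 and shRNA 2, 617 and 779, became 1122 and 1377 with a minimum of 10 counts, 398 and 430 with 100, 3973 and 3683 with none, 354 and 494 without opposite-strand overlap, and 366 and 468 for protein-coding genes (added after the data were seen). At 1.5-fold they were 1903 and 2053, at 4-fold 42 and 92, and with the whole interval beyond 2-fold 236 and 272. Histones higher with the label shRNA 2, 19, became 11 with a minimum of 100 counts, 29 with none, 11 by the interval and 5 at 4-fold. At 1.5-fold there were 33 DNA replication, 16 G1/S and 35 interferon-stimulated genes; at 4-fold 1, 0 and 4, with 2 ATF4 targets and 0 ribosome biogenesis genes. Of the latter 12 were left at 2-fold without overlap. The ATF4 median, -0.81, was -0.64 with no minimum, -0.64 for protein-coding genes and -1.23 without overlap; the cause was not tested. The other 5 leading medians kept to 0.84 to 0.97 (DNA replication), 0.88 to 0.92 (G1/S), -1.03 to -0.96 (interferon), -1.52 to -1.10 (histones) and 1.00 to 1.05 (ribosome biogenesis). Smaller medians were less firm: that of collagen chains went from -0.27 to 0.19 with no minimum and that of the MYC network from 0.06 to -0.13 with a minimum of 100 or without overlap. The scalings tried moved all log2 ratios by at most 0.037 in size (-0.037, upper quartile). No paired analysis was possible because each group has 1 library, and for the same reason no library could be left out.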
